A study of Arabidopsis with 12 samples.

Results

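Sucrose was compared with sorbitol in shaded leaves of phyA-211, an Arabidopsis thaliana line that carries a mutant allele of PHYA, the gene of the far-red light receptor phytochrome A. Messenger RNA captured on oligo(dT) beads was sequenced from 3 samples of phyA-211 given sucrose and 3 given sorbitol, a sugar alcohol at the same concentration, which make up 6 of the 12 libraries of the series. The other 6 are the same pair of treatments in Col-0, the wild type. Every seedling was 10 days old and grown in white light, and every one then spent 6 h in shade, with a ratio of red to far-red light of 0.17, in liquid medium with 30 mM of its sugar before the leaf portions were taken, so no effect of shade itself was measured. Only 1 mutant allele was used, and nothing in the labels tells if replicates were grown apart, so p-values reflect only how far these samples spread, which may be technical.

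Expression is given as TPM (transcript abundance scaled to a fixed total), a measure per transcript length. Of 32833 genes in the deposited table, 19862 had at least 1 TPM in at least 3 of the 12 libraries and were tested. Log2 changes are on the log2(TPM + 1) scale, which understates the change of genes with low values. A gene is said to have risen or fallen where limma's adjusted p (Benjamini-Hochberg over all genes tested, 2-sided) was below 0.05. The 325 genes just inside the filter, at 1 TPM or more in exactly 3 libraries, had a median mean of 0.754 TPM, and the 462 just outside it, with exactly 2 such libraries, had a median mean of 0.607 TPM. Among the tested genes, 13 passed only through the 3 phyA-211 sucrose libraries and all 13 were called risen, while 10 passed only through the 3 phyA-211 sorbitol libraries and 6 of them were called fallen, so calls of these genes follow in part from the filter.

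Sucrose is the form in which plants move carbon between organs. Cells split it into hexoses, and hexokinases and the TOR kinase are known to promote growth, protein synthesis and cell division when sugar is plentiful, while the SnRK1 kinase and its partner bZIP transcription factors switch on the breakdown of amino acids, lipids and proteins when carbon runs short. Phytochrome A is known for signalling in far-red light and for restraining elongation in deep shade.

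PHYA transcript in phyA-211 stood at 32.5, 41.3 and 34.9 TPM with sorbitol and 44.9, 44.7 and 37.4 TPM with sucrose, and the groups overlapped. The means were 36.2 ± 4.56 and 42.3 ± 4.25 TPM (SD, n = 3; exact permutation p = 0.2, 2-sided, where 3 libraries against 3 can go no lower than 0.1). They made up 9.99% of the Col-0 mean with sorbitol and 15.2% with sucrose, and every mutant library lay below every Col-0 library (exact permutation p = 0.1 under each sugar). The depth of the libraries is unknown because TPM holds no counts, and each detected between 22451 and 22852 genes. The leaf label held for mesophyll, whose 6 marker genes (antenna, Rubisco and carbon fixation proteins) summed to 23980 to 49165 TPM, the lowest sum being that of sucrose replicate 3. Markers of root were present as well: 11 of 12 were tested and summed to 850 to 1965 TPM in phyA-211, most of it the root beta-glucosidase PYK10, with the highest sum in sorbitol replicate 2. Meristem markers summed to 16.8 to 25.1 TPM, xylem markers to 68.8 to 87.5 TPM, guard cell markers to 146 to 232 TPM and trichome markers to 7.94 to 12.3 TPM, the groups overlapping in each case. In bulk leaf samples fewer cells of a type and less RNA per cell cannot be told apart.

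The third sucrose library stood apart from the other two before any gene was named. On the first principal component, which held 42.3% of the variance of the 12 libraries, it lay at 72.4 against 18.7 and 23.3, and the sorbitol libraries lay between -50.1 and -24.0. It was the library farthest from sorbitol for 2904 of the 3361 genes that rose (86.4%) and for 1417 of the 2093 that fell (67.7%), and the nearest for 278 (8.27%) and 333 (15.9%). Among the 2412 genes that rose with sucrose in Col-0, its direction was that of the other libraries. Replicates 1, 2 and 3 of phyA-211 lay above the sorbitol mean for 95.9%, 98.3% and 98.8% of them, at median log2 differences of 0.55, 0.62 and 0.98. The spread behind those calls came from all 12 libraries, so genes in which replicate 3 strayed were less likely to be among them. Some groups went otherwise: median differences were 0.24, 0.07 and -0.81 for photosystem and antenna genes and -0.49, -0.19 and 0.18 for WRKY factors. Counts of most gene groups are therefore given with and without this library.

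In all, 3361 genes rose (16.9% of those tested) and 2093 fell (10.5%) with sucrose in phyA-211. Without sucrose replicate 3 there were 1915 rises (9.64%) and 1514 falls (7.62%), of which 1828 and 1400 were also called with it. The counts leaned on single sorbitol libraries as well, with 1336 rises and 980 falls without sorbitol replicate 3 and 1779 and 1634 without sorbitol replicate 1. With only the phyA-211 libraries fitted, so that Col-0 did not enter the spread, there were 1621 rises and 1088 falls. The 6 libraries did not overlap between sugars for 8236 genes (41.5%). A log2 change of at least 1 was reached by 607 rises and 718 falls. The balance of rises and falls depended on the scaling: rescaled by median ratios there were 2785 rises and 3022 falls, and after quantile normalization 3455 and 2621. The median log2 change of all genes tested was 0.11 as deposited and -0.02 after median-ratio scaling, and the medians of gene groups below are to be read against that 0.11.

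**Figure D1:**
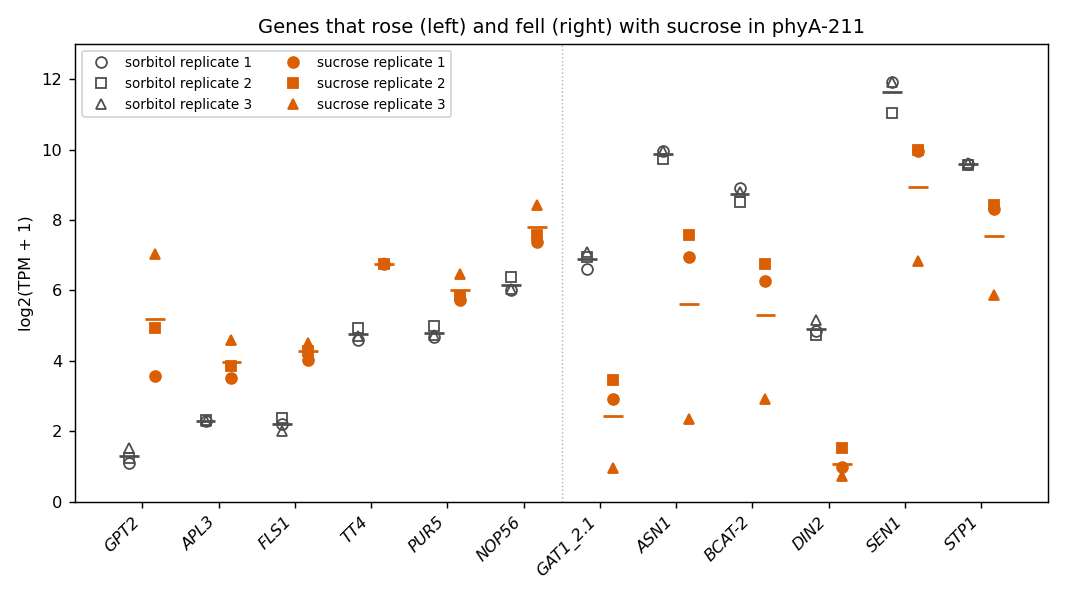
Level on the log2(TPM + 1) scale of 12 genes in the 3 sorbitol (open symbols) and 3 sucrose (filled symbols) libraries of phyA-211, with bars at group means. All were picked from genes called, and those among the 15 largest rises or falls had to show no overlap, so the gap between the sugars follows in part from the choice. Sucrose replicate 3 (triangles) was the extreme sucrose library for every gene shown.

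The largest falls included genes of amino acid turnover and genes first found in dark-treated leaves. The 15 largest falls among genes with a group mean of at least 5 TPM and no overlap between the groups held 10 genes with a symbol and 5 without. Lack of overlap was a condition of entry for these genes and is no separate result. GAT1_2.1, a class I glutamine amidotransferase-like protein, stood at 96.03, 123 and 136 TPM with sorbitol and 6.5, 10.01 and 0.95 TPM with sucrose. Its log2 change was -4.44 (SE 0.51, adjusted p = 0.00121). ASN1, the glutamine-dependent asparagine synthetase known as a marker of dark-treated leaves, stood at 998, 842 and 992 TPM with sorbitol and 123, 189 and 4.07 TPM with sucrose, all sucrose libraries being low and replicate 3 far lower than the others (log2 change -4.26, SE 1.01, adjusted p = 0.0117). DIN2, a beta-glucosidase first found in dark-treated leaves, stood at 27.6, 25.4 and 34.5 TPM with sorbitol and 0.98, 1.86 and 0.66 TPM with sucrose, with little spread within either group (log2 change -3.82, SE 0.49, adjusted p = 0.00155). THA1, a threonine aldolase that splits threonine into glycine and acetaldehyde, stood at 415, 253 and 386 TPM with sorbitol and 63.7, 77.01 and 2.6 TPM with sucrose, again with the third sucrose library lowest (log2 change -3.71, adjusted p = 0.0144). A pair of glyoxalase I family genes, GLYI7 and GLYI4, fell together. GLYI7 stood at 106, 62.9 and 94.3 TPM with sorbitol and 5.44, 9.47 and 0.41 TPM with sucrose (log2 change -4.25, adjusted p = 0.00259). GLYI4 stood at 51.9, 109 and 116 TPM with sorbitol and 7.32, 12.9 and 6.93 TPM with sucrose (log2 change -3.18, adjusted p = 0.00121). The dehydrin LTI30, which protects cells from drying and cold, stood at 32.6, 64.1 and 54.7 TPM with sorbitol and 2.58, 5.7 and 5.03 TPM with sucrose (log2 change -3.24, adjusted p = 0.00121). HIS1-3, which is not among those 15 and encodes a linker histone induced by drought, stood at 20.5, 39.6 and 42.3 TPM with sorbitol and 2.45, 4.09 and 2.23 TPM with sucrose (log2 change -3.13, adjusted p = 0.00108).

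The 15 largest rises were taken by the same rule, with a group mean of at least 5 TPM and no overlap, so their lack of overlap is no separate result. Of them, 6 genes had a symbol and 9 did not, and 4 of the 15 were listed at 0 in every sorbitol library, so no fold is given for those. GPT2, which imports glucose 6-phosphate into plastids, stood at 1.15, 1.34 and 1.86 TPM with sorbitol and 10.9, 29.3 and 131 TPM with sucrose. Its sucrose libraries differed widely among themselves (log2 change 3.9, SE 0.7, adjusted p = 0.0043). FTM1, a stearoyl-acyl carrier protein desaturase, stood at 1.8, 1.12 and 5.54 TPM with sorbitol and 13.2, 29.3 and 160.4 TPM with sucrose with the same order of libraries (log2 change 3.6, SE 0.87, adjusted p = 0.0123). AT5G51440, an HSP20-like chaperone, stood at 3.31, 3.32 and 2.16 TPM with sorbitol and 21.1, 25.9 and 134 TPM with sucrose, which placed replicate 3 far above the other sucrose libraries (log2 change 3.47, adjusted p = 0.00269). AT2G04050, a MATE family efflux carrier, stood at 4.43, 5.52 and 11.4 TPM with sorbitol and 37.4, 35.03 and 96.3 TPM with sucrose (log2 change 2.75, adjusted p = 0.00436). UGT74E2, a glycosyltransferase that acts on the auxin precursor indole-3-butyric acid, stood at 1.24, 4.23 and 6.5 TPM with sorbitol and 19.5, 16.8 and 49.9 TPM with sucrose (log2 change 2.58, adjusted p = 0.0131). BCS1, an AAA-type ATPase of mitochondria, stood at 0.72, 1.87 and 0.63 TPM with sorbitol and 3.46, 5.74 and 32.2 TPM with sucrose, high mainly in replicate 3 (log2 change 2.32, adjusted p = 0.0138).

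Genes for the breakdown of branched-chain amino acids fell almost as a block. Of 15 tested, 13 fell and 1 rose, with a median log2 change of -1.39 beside 0.11 for all genes, and 11 fell without sucrose replicate 3. Most of the list covers steps of leucine, isoleucine and valine breakdown. BCAT-2, an aminotransferase that removes the amino group, stood at 479, 361 and 444 TPM with sorbitol and 76.6, 106 and 6.57 TPM with sucrose (log2 change -3.42, SE 0.75, adjusted p = 0.00869). DIN4, a subunit of the branched-chain 2-oxoacid dehydrogenase, stood at 228, 172 and 214 TPM with sorbitol and 78.3, 81.7 and 20.2 TPM with sucrose. BCE2, the acyltransferase of the same complex, stood at 135, 118 and 140.2 TPM with sorbitol and 48.4, 52.4 and 17.4 TPM with sucrose. Both groups of 3 were separate for both genes (log2 change -1.98, adjusted p = 0.0076 and log2 change -1.85, adjusted p = 0.00446). IVD, isovaleryl-CoA dehydrogenase, fell from 524 ± 66.1 to 143 ± 88.04 TPM (SDs here are over 3 libraries; log2 change -2.16, adjusted p = 0.00818), and MCCA, which carboxylates methylcrotonyl-CoA in leucine breakdown, stood at 449.8, 386 and 470.1 TPM with sorbitol and 135, 158 and 14.2 TPM with sucrose, lowest in replicate 3 (log2 change -2.66, adjusted p = 0.0154). CHY1, a hydroxyisobutyryl-CoA hydrolase of the valine route, was picked out after its values were seen because it did not pass (log2 change -0.19, adjusted p = 0.202), and AT4G31810, described as a Clp protease and crotonase family protein, was the 1 member that rose (log2 change 1.06, adjusted p = 0.00743).

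Turnover of nitrogen-rich amino acids was less uniform. Of 25 genes of asparagine, glutamate and proline metabolism, 8 fell and 1 rose, with a median of -0.08, and 7 fell without sucrose replicate 3. AT4G33150, the bifunctional enzyme that begins lysine breakdown, stood at 245, 238 and 263 TPM with sorbitol and 65.7, 81.7 and 32.8 TPM with sucrose, low in every sucrose library (log2 change -2.13, adjusted p = 0.00221). GDH1 and GDH2, subunits of glutamate dehydrogenase, fell from 285 ± 26.2 to 83.6 ± 35.9 TPM (log2 change -1.86, adjusted p = 0.0035) and from 1001 ± 31.6 to 334 ± 127 TPM (log2 change -1.66, adjusted p = 0.00272). ERD5, the proline dehydrogenase, fell from 259.8 ± 15.2 to 89.1 ± 37.8 TPM (log2 change -1.64, adjusted p = 0.00372), and P5CS2, which makes proline, fell less, from 90.8 ± 15.1 to 52.3 ± 8.44 TPM (log2 change -0.79, adjusted p = 0.00491). ASN3, another asparagine synthetase gene, rose while ASN1 fell, and stood at 9.97, 13.6 and 10.4 TPM with sorbitol and 19.7, 22.9 and 33.5 TPM with sucrose with no overlap (log2 change 1.08, adjusted p = 0.00766). In nitrate assimilation, 2 of 17 genes rose (11.8%) and 1 fell (5.88%). Both shares lay below those of all genes tested, 16.9% and 10.5%. The pair that rose belongs to nitrite reduction: NIR1, nitrite reductase itself, stood at 128, 215 and 135 TPM with sorbitol and 309.8, 317 and 528 TPM with sucrose (log2 change 1.26, adjusted p = 0.00667). UPM1, which makes its siroheme cofactor, stood at 105, 116 and 106 TPM with sorbitol and 181, 204 and 364 TPM with sucrose (log2 change 1.12, adjusted p = 0.00662). NIA1, a nitrate reductase, fell (log2 change -0.68, adjusted p = 0.0483), also with higher values in sorbitol replicate 2 than in the other sorbitol libraries, at 905, 1264 and 923 TPM.

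Senescence and vacuolar breakdown genes fell in 17 of 24 cases with no rise, at a median log2 change of -0.80, and 16 fell without sucrose replicate 3. SEN1 (AT4G35770), known from senescing and dark-treated leaves, stood at 3902, 2099 and 3856 TPM with sorbitol and 989, 1024 and 113 TPM with sucrose, among the most abundant transcripts of the sorbitol leaves (log2 change -2.7, adjusted p = 0.0175). SAG21, a senescence-associated late embryogenesis protein, stood at 2528, 1356 and 2529 TPM with sorbitol and 801, 934 and 981 TPM with sucrose (log2 change -1.19, adjusted p = 0.00843). The vacuolar proteases GAMMA-VPE, a processing enzyme, and ALP, an aleurain-like cysteine protease, fell with little spread, from 47.3 ± 5.85 to 19.98 ± 2.83 TPM and from 440.2 ± 7.67 to 229.9 ± 46.6 TPM (log2 change -1.2, adjusted p = 0.00151 and log2 change -0.96, adjusted p = 0.00269). NYE1, which helps to dismantle chlorophyll, fell from 19.3 ± 1.16 to 9.53 ± 2.54 TPM (log2 change -0.98, adjusted p = 0.00429). Of 17 genes described as autophagy proteins, 6 fell and none rose (4 fell without replicate 3), among them AT2G45170, which encodes autophagy 8E, at 327, 159 and 292 TPM with sorbitol and 83.2, 91.4 and 25.0 TPM with sucrose (log2 change -2.08, adjusted p = 0.00803). Fatty acid beta-oxidation and the glyoxylate cycle had 6 falls and 1 rise among 19 genes, and 11 falls and 1 rise after median-ratio scaling. ACX4, the short-chain acyl-CoA oxidase, fell from 260.3 ± 19.7 to 122 ± 49.7 TPM (log2 change -1.19, adjusted p = 0.00848), and PCK1, which turns oxaloacetate towards sugar, fell from 341 ± 72.1 to 208 ± 28.6 TPM (log2 change -0.69, adjusted p = 0.0128). KAT5, a thiolase gene, rose instead, from 7.34 ± 2.38 to 18.5 ± 1.16 TPM (log2 change 1.26, adjusted p = 0.00261).

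Sugar carriers fell more often than they rose, 10 against 2 of 29, at a median of -0.26, and without sucrose replicate 3 there were 10 falls and 1 rise. STP1, the main hexose-proton importer of many plant cells, stood at 774, 762 and 793 TPM with sorbitol and 318, 345 and 57.8 TPM with sucrose, falling in every sucrose library and most in replicate 3 (log2 change -2.06, SE 0.5, adjusted p = 0.013). STP4, a related importer, stood at 168, 220.1 and 165 TPM with sorbitol and 85.1, 108 and 93.2 TPM with sucrose, here with replicate 3 between the others (log2 change -0.94, adjusted p = 0.004). SWEET12, which exports sucrose towards the phloem, stood at 52.8, 43.6 and 51.6 TPM with sorbitol and 22.8, 18.3 and 1.38 TPM with sucrose (log2 change -2.28, adjusted p = 0.0219). SWEET2 and SWEET16, sugar carriers of the vacuole membrane, stood at 43.1, 39.7 and 34.8 TPM with sorbitol and 15.8, 13.7 and 10.0 TPM with sucrose and at 13.1, 22.03 and 15.6 TPM with sorbitol and 7.84, 8.87 and 6.18 TPM with sucrose (log2 change -1.52, adjusted p = 0.00121 and log2 change -1.03, adjusted p = 0.00567). SUT2, a sucrose transporter, was 1 of the 2 carriers that rose, at 11.1, 15.2 and 12.6 TPM with sorbitol and 16.2, 19.6 and 37.6 TPM with sucrose (log2 change 0.79, adjusted p = 0.0379).

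Genes that split sucrose or handle trehalose phosphate, a sugar signal, moved both ways. Among 17 trehalose phosphate genes 4 rose and 6 fell (3 and 5 without sucrose replicate 3). TPS1, the synthase that makes trehalose 6-phosphate, rose, at 7.34, 9.87 and 7.55 TPM with sorbitol and 15.2, 15.7 and 17.2 TPM with sucrose (log2 change 0.89, adjusted p = 0.0049), and TPS5 rose with it (log2 change 0.72, adjusted p = 0.0363). The related TPS8, TPS9, TPS10 and TPS11 all fell, TPS11 the most, at 138, 163 and 130.2 TPM with sorbitol and 74.2, 77.02 and 15.2 TPM with sucrose (log2 change -1.66, adjusted p = 0.0204). TPS8 stood at 73.9, 94.7 and 80.3 TPM with sorbitol and 50.5, 50.8 and 17.6 TPM with sucrose (log2 change -1.18, adjusted p = 0.0175). TRE1, the trehalase, fell from 9.91 ± 1.21 to 5.17 ± 0.18 TPM (log2 change -0.82, adjusted p = 0.00271). Among 20 genes of sucrose cleavage and synthesis 3 rose and 5 fell, and 0 rises and 3 falls were left without sucrose replicate 3. HXK1, the hexokinase that also senses glucose, stood at 28.96, 39.1 and 35.3 TPM with sorbitol and 44.3, 47.4 and 47.6 TPM with sucrose (log2 change 0.43, adjusted p = 0.0249). The cytosolic invertases parted: CINV2 rose (log2 change 0.73, adjusted p = 0.0182) and CINV1 fell (log2 change -0.52, adjusted p = 0.0274). Of the 23 regulators of energy signalling, 3 rose and 6 fell (2 and 4 without sucrose replicate 3). The fallers included bZIP1, a factor of the starvation response, at 164, 118 and 153 TPM with sorbitol and 74.3, 61.8 and 16.9 TPM with sucrose (log2 change -1.72, adjusted p = 0.0134), and BZIP9, at 45.2, 50.2 and 52.1 TPM with sorbitol and 29.6, 23.98 and 15.96 TPM with sucrose (log2 change -1.09, adjusted p = 0.00307), while GBF6, a bZIP factor whose translation is known to be repressed by sucrose, rose in transcript, at 3.84, 6.9 and 4.98 TPM with sorbitol and 9.15, 9.34 and 16.9 TPM with sucrose (log2 change 1.01, adjusted p = 0.0154).

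**Figure D2:**
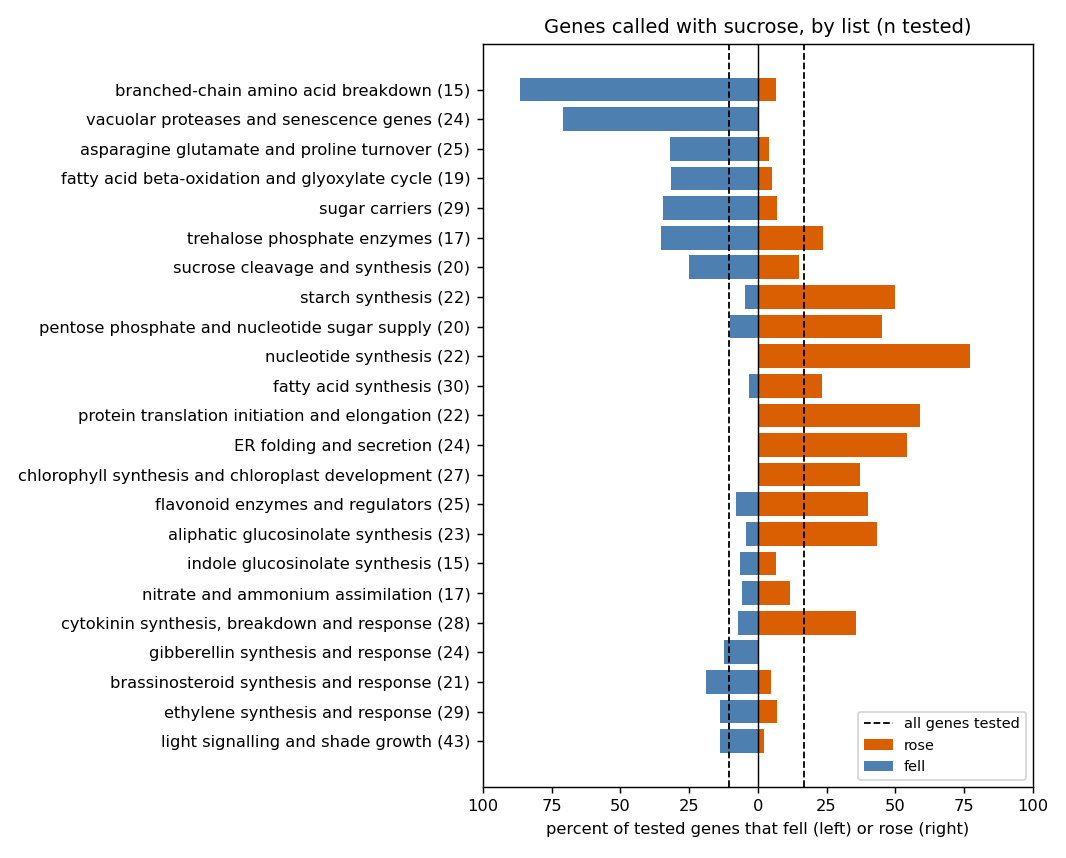
Percent of tested genes in each list that fell (blue, left) or rose (orange, right) with sucrose in phyA-211, with the number tested in brackets and dashed lines at the shares among all genes tested (10.5% fell, 16.9% rose). Branched-chain amino acid breakdown and senescence genes lay far past the line on the left, and nucleotide synthesis, translation and endoplasmic reticulum (ER) folding far past it on the right. Without sucrose replicate 3 the share of rises in ER folding was 12.5%, beside 9.64% of all genes.

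Genes that store carbon or turn it into building blocks rose more often than they fell. Starch synthesis had 11 rises and 1 fall among 22 genes at a median of 0.49, and 5 rises and 0 falls without sucrose replicate 3. APL3, a large subunit of ADP-glucose pyrophosphorylase, the committed enzyme of starch synthesis, stood at 3.85, 4.0 and 3.84 TPM with sorbitol and 10.3, 13.3 and 23.01 TPM with sucrose, the sorbitol libraries being nearly alike and all sucrose libraries above them (log2 change 1.68, SE 0.26, adjusted p = 0.00269). APL4, a further large subunit, stood at 3.46, 3.68 and 3.41 TPM with sorbitol and 7.01, 6.87 and 8.62 TPM with sucrose (log2 change 0.91, adjusted p = 0.00592), and ADG1, the small subunit, increased from 188 ± 22.95 to 249.7 ± 2.79 TPM (log2 change 0.41, adjusted p = 0.0412). QQS, which lowers starch when overproduced, fell from 125 ± 37.4 to 72.9 ± 17.6 TPM (log2 change -0.76, adjusted p = 0.0431), and sorbitol replicate 2 lay close to the sucrose libraries for it. In the pentose phosphate pathway and supply of nucleotide sugars, 9 of 20 genes rose and 2 fell (6 and 2 without sucrose replicate 3). G6PD3, a plastid glucose-6-phosphate dehydrogenase, stood at 6.53, 9.89 and 6.77 TPM with sorbitol and 19.4, 26.6 and 83.3 TPM with sucrose (log2 change 2.07, adjusted p = 0.00546). AT5G41670, a 6-phosphogluconate dehydrogenase, stood at 55.9, 60.6 and 60.9 TPM with sorbitol and 124, 142 and 358 TPM with sucrose (log2 change 1.63, adjusted p = 0.00446). In fatty acid synthesis 7 of 30 genes rose and 1, the acyl carrier protein ACP1, fell. That balance depended on scaling, with 6 rises and 4 falls after median-ratio scaling.

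Nucleotide synthesis rose in 17 of 22 genes with no fall, at a median of 0.79, and in 14 without sucrose replicate 3. PUR5, an enzyme of purine ring synthesis, stood at 24.3, 30.4 and 25.7 TPM with sorbitol and 51.8, 56.1 and 88.1 TPM with sucrose, with no overlap (log2 change 1.22, SE 0.21, adjusted p = 0.00365). PYRD, dihydroorotate dehydrogenase of the pyrimidine route, stood at 12.2, 14.5 and 12.7 TPM with sorbitol and 26.8, 28.8 and 39.4 TPM with sucrose (log2 change 1.19, adjusted p = 0.00366). PRS2, which makes the ribose donor of both routes, increased from 9.64 ± 0.987 to 19.99 ± 4.86 TPM (log2 change 0.96, adjusted p = 0.00437), and ADK1 (AT3G09820), an adenosine kinase that recycles adenosine, increased from 134 ± 14.1 to 283 ± 56.3 TPM (log2 change 1.06, adjusted p = 0.00269).

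Among the lists and families, the largest number of rises lay in ribosomal proteins. Of 356 cytosolic and organellar ribosomal protein genes, 179 rose and 6 fell (median 0.45, 137 rises without replicate 3 and 115 after median-ratio scaling). RPS6 (AT4G31700), whose protein is phosphorylated downstream of TOR, stood at 367, 389 and 359 TPM with sorbitol and 730.3, 753 and 1067 TPM with sucrose (log2 change 1.17, adjusted p = 0.00192). Of 62 ribosomal RNA processing and pseudouridine synthase genes 34 rose and 2 fell, with 23 rises without sucrose replicate 3 and 7 falls after median-ratio scaling. NOP56, a core protein of the particles that methylate ribosomal RNA, stood at 63.8, 81.9 and 64.4 TPM with sorbitol and 166, 188 and 343 TPM with sucrose (log2 change 1.65, adjusted p = 0.00317). Transfer RNA synthetases rose in 30 of 50 cases and fell in 1, but 17 rose without sucrose replicate 3. OVA1, a methionyl-tRNA synthetase, stood at 30.5, 36.6 and 28.4 TPM with sorbitol and 55.6, 56.6 and 75.2 TPM with sucrose (log2 change 0.94, adjusted p = 0.00539). Translation factors rose in 50 of 106 cases and fell in 10, and RNA helicases rose in 27 of 63 and fell in 2, with 36 and 18 rises without sucrose replicate 3. Pentatricopeptide repeat (PPR) proteins, which process organelle RNA, rose in 54 of 239 cases (22.6%, beside 16.9% of all genes) and fell in 2, at a median of 0.38. Without sucrose replicate 3, 19 rose (7.95%), which is below the 9.64% of all genes, and 1 fell. The median was then 0.27, beside 0.08 for all genes.

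Several chaperone families rose as well. Chaperonins rose in 15 of 19 cases and fell in 1, at a median of 0.71, and 13 rose without replicate 3. Cpn60beta2 and CPN60A, subunits of the chloroplast chaperonin that folds Rubisco, stood at 48.4, 60.4 and 45.2 TPM with sorbitol and 135, 140.3 and 253 TPM with sucrose (log2 change 1.71, adjusted p = 0.00283) and at 254, 262 and 224 TPM with sorbitol and 478, 477 and 673 TPM with sucrose (log2 change 1.12, adjusted p = 0.00339). The HSP70 and HSP90 families rose in 15 of 20 cases with no fall, at a median of 1.01, but in 8 without sucrose replicate 3. Organelle members rose in all sucrose libraries: mtHsc70-1, of mitochondria, stood at 59.3, 88.99 and 62.5 TPM with sorbitol and 142, 168 and 354 TPM with sucrose (log2 change 1.54, adjusted p = 0.00598). cpHsc70-2, of chloroplasts, stood at 73.3, 106 and 71.3 TPM with sorbitol and 159.8, 159 and 303 TPM with sucrose (log2 change 1.25, adjusted p = 0.00745). ER folding and secretion genes rose in 13 of 24 cases, but in 3 without replicate 3 (12.5%, beside 9.64% of all genes). BIP2, the main HSP70 of the ER, stood at 88.1, 167 and 101 TPM with sorbitol and 199, 229 and 570.4 TPM with sucrose, where replicate 3 was the highest of the sucrose libraries and replicate 2 the highest of the sorbitol libraries (log2 change 1.37, adjusted p = 0.0159). The small heat shock proteins stood near the background, with 5 rises (17.2%) and 2 falls among 29 at a median of 0.18, and with 2 rises and a median of -0.05 without replicate 3. Proteasome subunits rose in 16 of 43 cases, in 5 without replicate 3 (11.6%, beside 9.64% of all genes) and in 7 after median-ratio scaling.

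**Figure D3:**
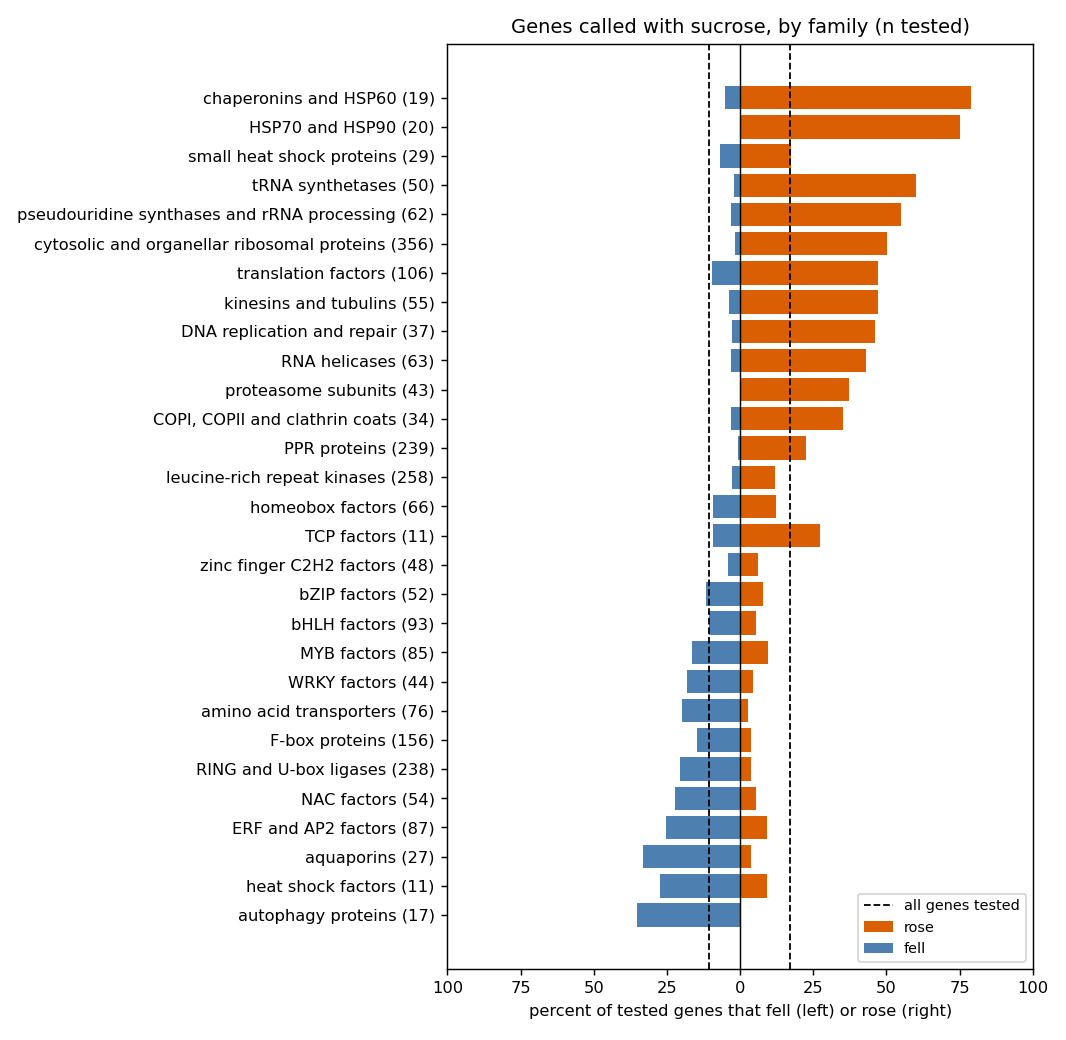
Percent of tested genes in each family, formed from words in the gene descriptions, that fell (blue, left) or rose (orange, right) with sucrose in phyA-211, with the number tested in brackets and dashed lines at the shares among all genes (10.5% fell, 16.9% rose). Chaperonins, the HSP70 and HSP90 families and tRNA synthetases stood highest, and autophagy proteins, aquaporins and heat shock factors had the largest shares of falls among those shown.

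Genes of DNA replication and of the cytoskeleton rose more often than they fell. Of 37 replication and repair genes 17 rose and 1 fell (median 0.60, 13 rises without sucrose replicate 3). The MCM proteins form the helicase that opens DNA at replication forks: MCM2 stood at 8.32, 11.4 and 8.09 TPM with sorbitol and 20.6, 23.7 and 33.4 TPM with sucrose (log2 change 1.37, adjusted p = 0.00326). MCM4 stood at 8.69, 11.9 and 9.05 TPM with sorbitol and 22.03, 20.3 and 27.9 TPM with sucrose (log2 change 1.16, adjusted p = 0.00316). Neither gene had overlapping groups. RPA70D, which binds single-stranded DNA, stood at 7.6, 8.8 and 6.94 TPM with sorbitol and 18.9, 20.9 and 33.4 TPM with sucrose (log2 change 1.49, adjusted p = 0.00273). Some core histones rose while the linker histone HIS1-3 fell: HTA6, an H2A histone, stood at 108, 82.7 and 98.2 TPM with sorbitol and 186, 185 and 193 TPM with sucrose (log2 change 0.97, adjusted p = 0.00151). Histone descriptions gave 16 rises and 7 falls among 44 genes (8 and 8 after median-ratio scaling), a set that includes histone methyltransferases. Kinesins and tubulins rose in 26 of 55 cases and fell in 2, and 16 rose without sucrose replicate 3. TUB7, a beta-tubulin, stood at 100.2, 138 and 106 TPM with sorbitol and 206, 213 and 279.6 TPM with sucrose (log2 change 1.01, adjusted p = 0.00356). TUA4, an alpha-tubulin, stood at 313, 441 and 353 TPM with sorbitol and 651, 724 and 1029 TPM with sucrose (log2 change 1.1, adjusted p = 0.00495). Reads of such near-identical tubulins may have been shared between copies. Expansins and xyloglucan enzymes, which loosen or remodel the wall, had 14 rises and 4 falls among 48 (10 and 5 without sucrose replicate 3). XTH33 and EXPA15 rose, at 14.2, 19.5 and 17.7 TPM with sorbitol and 30.3, 40.4 and 67.1 TPM with sucrose (log2 change 1.31, adjusted p = 0.00448) and at 7.65, 9.64 and 9.25 TPM with sorbitol and 15.5, 16.97 and 25.6 TPM with sucrose (log2 change 1.02, adjusted p = 0.00453). XTH24, the most abundant of those that fell, stood at 1244, 1075 and 1363 TPM with sorbitol and 397, 529 and 579 TPM with sucrose (log2 change -1.3, adjusted p = 0.00541).

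Of 25 flavonoid genes 10 rose and 2 fell, and 9 rose without sucrose replicate 3. TT4, the chalcone synthase that begins the pathway, stood at 23.1, 29.8 and 25.2 TPM with sorbitol and 106, 107 and 109 TPM with sucrose, with sucrose libraries nearly alike (log2 change 2.01, SE 0.24, adjusted p = 0.00121). FLS1, flavonol synthase, stood at 3.56, 4.16 and 3.03 TPM with sorbitol and 15.2, 18.6 and 21.6 TPM with sucrose, also with no overlap and with the smallest adjusted p of the list (log2 change 2.08, SE 0.18, adjusted p = 0.000812). F3H, flavanone 3-hydroxylase, increased from 4.35 ± 0.712 to 13.4 ± 6.18 TPM (log2 change 1.35, adjusted p = 0.00346), and MYB111, a factor that activates flavonol genes, from 1.14 ± 0.53 to 5.87 ± 3.47 TPM (log2 change 1.59, adjusted p = 0.00613). MYBL2, a repressor of anthocyanin synthesis, fell, at 96.1, 101 and 90.5 TPM with sorbitol and 44.5, 38.9 and 9.35 TPM with sucrose (log2 change -1.86, adjusted p = 0.0104).

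Glucosinolates are sulfur-containing defence compounds made from methionine (aliphatic) or tryptophan (indole). Aliphatic glucosinolate genes had 10 rises and 1 fall among 23 at a median of 0.93, but 4 rises and 1 fall without sucrose replicate 3. CYP79F2, which makes the aldoxime precursor, stood at 0.79, 2.41 and 1.09 TPM with sorbitol and 3.55, 5.45 and 11.97 TPM with sucrose (log2 change 1.63, adjusted p = 0.0101). IPMI1, an isomerase that lengthens the methionine side chain, stood at 0, 0.66 and 0 TPM with sorbitol and 2.19, 5.6 and 13.5 TPM with sucrose (log2 change 2.51, adjusted p = 0.00374). BCAT3, an aminotransferase of the same cycle, stood at 46.6, 58.9 and 46.3 TPM with sorbitol and 76.8, 89.9 and 133 TPM with sucrose (log2 change 0.94, adjusted p = 0.00774), so it rose while BCAT-2 of the breakdown route fell. MYB28, the main activator of the aliphatic pathway, stood at 8.13, 16.2 and 9.3 TPM with sorbitol and 20.9, 22.9 and 34.4 TPM with sucrose (log2 change 1.17, adjusted p = 0.0166), and in these genes sorbitol replicate 2 was the highest of the sorbitol libraries. FMO GS-OX4, which oxidises the side chain, fell from 17.1 ± 6.27 to 5.84 ± 0.946 TPM (log2 change -1.35, adjusted p = 0.00436). Of 15 indole glucosinolate genes 1 rose and 1 fell despite a median of 0.58. The faller was IGMT1, a methyltransferase that modifies them, at 11.5, 52.6 and 25.3 TPM with sorbitol and 4.71, 6.73 and 5.01 TPM with sucrose, with sorbitol replicate 2 highest (log2 change -2.02, adjusted p = 0.00875). That library also had the highest sum of root markers, and the part of root tissue in these values was not tested.

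Ubiquitin ligases and several families of transcription factors fell more often than they rose. Of 238 genes described as RING or U-box proteins, 49 fell and 9 rose (30 and 4 without sucrose replicate 3, and 88 and 8 after median-ratio scaling). ATL8, a membrane-anchored RING ligase, stood at 25.8, 35.2 and 35.1 TPM with sorbitol and 6.19, 7.71 and 5.24 TPM with sucrose, with no overlap (log2 change -2.16, adjusted p = 0.00121). F-box proteins fell in 23 of 156 cases and rose in 6 (20 and 3 without sucrose replicate 3, and 38 and 4 after median-ratio scaling). Among transcription factors, WRKY had 8 falls (18.2%) and 2 rises among 44 and MYB 14 (16.5%) and 8 among 85, beside 10.5% falls and 16.9% rises among all genes. Falls were near that share for bHLH, at 10 (10.75%) with 5 rises among 93, and for bZIP, at 6 (11.5%) with 4 rises among 52. Homeobox factors had 8 rises (12.1%) and 6 falls among 66, TCP factors 3 and 1 among 11 and C2H2 zinc finger factors 3 (6.25%) and 2 among 48. Without sucrose replicate 3 the homeobox, TCP and C2H2 counts became 4 and 5, 1 and 0, and 1 and 2. NAC factors fell in 12 of 54 cases and rose in 3. ATAF1, a NAC factor of stress and starvation responses, stood at 32.96, 45.9 and 37.6 TPM with sorbitol and 15.1, 17.01 and 13.4 TPM with sucrose (log2 change -1.29, adjusted p = 0.00121), and NAC6 (also called ORE1), a regulator of leaf senescence, at 56.1, 45.5 and 61.3 TPM with sorbitol and 33.8, 28.4 and 17.4 TPM with sucrose (log2 change -1.05, adjusted p = 0.00677). NAC044, a NAC factor known from the DNA damage response, rose, at 1.19, 2.05 and 1.12 TPM with sorbitol and 4.01, 4.96 and 12.6 TPM with sucrose (log2 change 1.61, adjusted p = 0.0079). ERF and AP2 factors fell in 22 of 87 cases and rose in 8. RAP2.6, a stress-induced ERF, stood at 19.3, 37.8 and 18.3 TPM with sorbitol and 4.17, 3.87 and 4.94 TPM with sucrose (log2 change -2.22, adjusted p = 0.00121). Of 27 aquaporins, which pass water through membranes, 9 fell and 1 rose, and 5 fell without replicate 3. PIP1B, the most abundant of those that fell, stood at 1637, 1695 and 1646 TPM with sorbitol and 1145, 1137 and 735 TPM with sucrose (log2 change -0.75, adjusted p = 0.0147). TIP2;3, an aquaporin of the root vacuole membrane and 1 of the 11 root markers, stood at 5.89, 34.5 and 16.4 TPM with sorbitol and 1.41, 4.9 and 3.85 TPM with sucrose (log2 change -1.98, adjusted p = 0.0411). Among 76 amino acid transporters 15 fell and 2 rose (10 and 0 without sucrose replicate 3). UMAMIT33, of an amino acid exporter family, stood at 40.95, 62.4 and 76.2 TPM with sorbitol and 4.41, 10.3 and 2.72 TPM with sucrose (log2 change -3.27, adjusted p = 0.00168).

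The hormone lists are to be read beside all genes, of which 16.9% rose and 10.5% fell, or 9.64% and 7.62% without sucrose replicate 3. Of 28 cytokinin genes 12 were called (42.9%, beside 27.5% of all genes), 10 upwards and 2 downwards. Without sucrose replicate 3 there were 3 rises, at 10.7% near the background, and 1 fall. ARR4, a type-A response regulator induced by cytokinin, stood at 15.01, 23.1 and 18.4 TPM with sorbitol and 24.2, 25.1 and 33.99 TPM with sucrose (log2 change 0.54, adjusted p = 0.0374). CRF2, a cytokinin response factor, stood at 6.67, 7.81 and 6.67 TPM with sorbitol and 11.2, 11.9 and 18.4 TPM with sucrose (log2 change 0.85, adjusted p = 0.00843). LOG5 and LOG7, which release active cytokinin, fell (log2 change -0.78, adjusted p = 0.0494 and log2 change -0.84, adjusted p = 0.0409). Of 24 gibberellin genes none rose and 3 fell (12.5%, near the background), with 1 fall (4.17%) without sucrose replicate 3 and 6 falls after median-ratio scaling. The receptor GID1C was among them, at 24.2, 26.5 and 23.4 TPM with sorbitol and 14.4, 15.2 and 10.1 TPM with sucrose (log2 change -0.87, adjusted p = 0.00292). Of 21 brassinosteroid genes 1 rose and 4 fell. BR6OX2, which makes brassinolide, increased from 27.4 ± 3.05 to 40.1 ± 3.17 TPM (log2 change 0.53, adjusted p = 0.0135), and BAS1, which inactivates brassinosteroids, fell from 15.5 ± 2.39 to 9.09 ± 0.724 TPM (log2 change -0.7, adjusted p = 0.00437). Of 29 ethylene genes 2 rose (6.90%) and 4 fell (13.8%), with 0 and 3 without sucrose replicate 3, and 1 and 11 after median-ratio scaling. EIN3, the main factor of ethylene signalling, fell from 206 ± 22.6 to 156 ± 6.95 TPM (log2 change -0.39, adjusted p = 0.0235). ACS8, an enzyme of ethylene synthesis, rose, at 14.8, 34.6 and 17.8 TPM with sorbitol and 35.1, 39.5 and 69.3 TPM with sucrose, where sorbitol replicate 2 nearly reached the lowest sucrose library (log2 change 1.09, adjusted p = 0.0289).

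Light signalling and shade growth genes changed in 7 of 43 cases (16.3%, beside 27.5% of all genes), 1 upwards and 6 downwards. There were 1 rise and 2 falls without sucrose replicate 3, and 1 and 11 after median-ratio scaling. PIL1, a bHLH factor known for its quick rise in shade, was the one that rose, at 21.5, 32.2 and 24.4 TPM with sorbitol and 44.9, 53.4 and 91.2 TPM with sucrose (log2 change 1.2, adjusted p = 0.0064). FHL and FHY1 (AT2G37678), the proteins that carry phytochrome A into the nucleus, both fell in this mutant. FHL stood at 15.7, 16.4 and 19.6 TPM with sorbitol and 7.45, 10.9 and 10.1 TPM with sucrose (log2 change -0.81, adjusted p = 0.00911). FHY1 stood at 22.02, 18.3 and 20.7 TPM with sorbitol and 11.7, 16.1 and 9.82 TPM with sucrose (log2 change -0.68, adjusted p = 0.0298). Neither gene had overlapping groups. HYH, a bZIP factor close to HY5, fell from 54.1 ± 6.03 to 33.6 ± 5.93 TPM (log2 change -0.68, adjusted p = 0.00735).

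Chlorophyll synthesis rose in 10 of 27 genes with none falling, in 13 without sucrose replicate 3 and in 5 after median-ratio scaling. GSA2, which makes the precursor aminolevulinate, stood at 88.3, 82.1 and 72.4 TPM with sorbitol and 142, 139 and 133 TPM with sucrose (log2 change 0.77, adjusted p = 0.00592). PCB2, a divinyl reductase, stood at 36.6, 36.02 and 24.2 TPM with sorbitol and 63.7, 55.9 and 64.1 TPM with sucrose (log2 change 0.92, adjusted p = 0.0101). None of the 6 mesophyll markers passed the test. CAB1, a chlorophyll-binding antenna protein, stood at 25511, 22089 and 25027 TPM with sorbitol and 25459, 22687 and 12755 TPM with sucrose and RBCS1A, a Rubisco small subunit, at 10776, 7851 and 9138 TPM with sorbitol and 12179, 11743 and 6269 TPM with sucrose, so both were lowest in sucrose replicate 3, and the 2 remaining sucrose libraries lay within or above the sorbitol range (log2 change -0.31, adjusted p = 0.494 and log2 change 0.07, adjusted p = 0.875). Of 66 photosystem and antenna genes 4 rose and 0 fell. Their median log2 difference from the sorbitol mean was 0.24, 0.07 and -0.81 in sucrose replicates 1, 2 and 3. Since TPM sums to a fixed total, a smaller share for these abundant transcripts in replicate 3 goes with larger values elsewhere, and its part in the rises of that library was not tested.

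**Figure D4:**
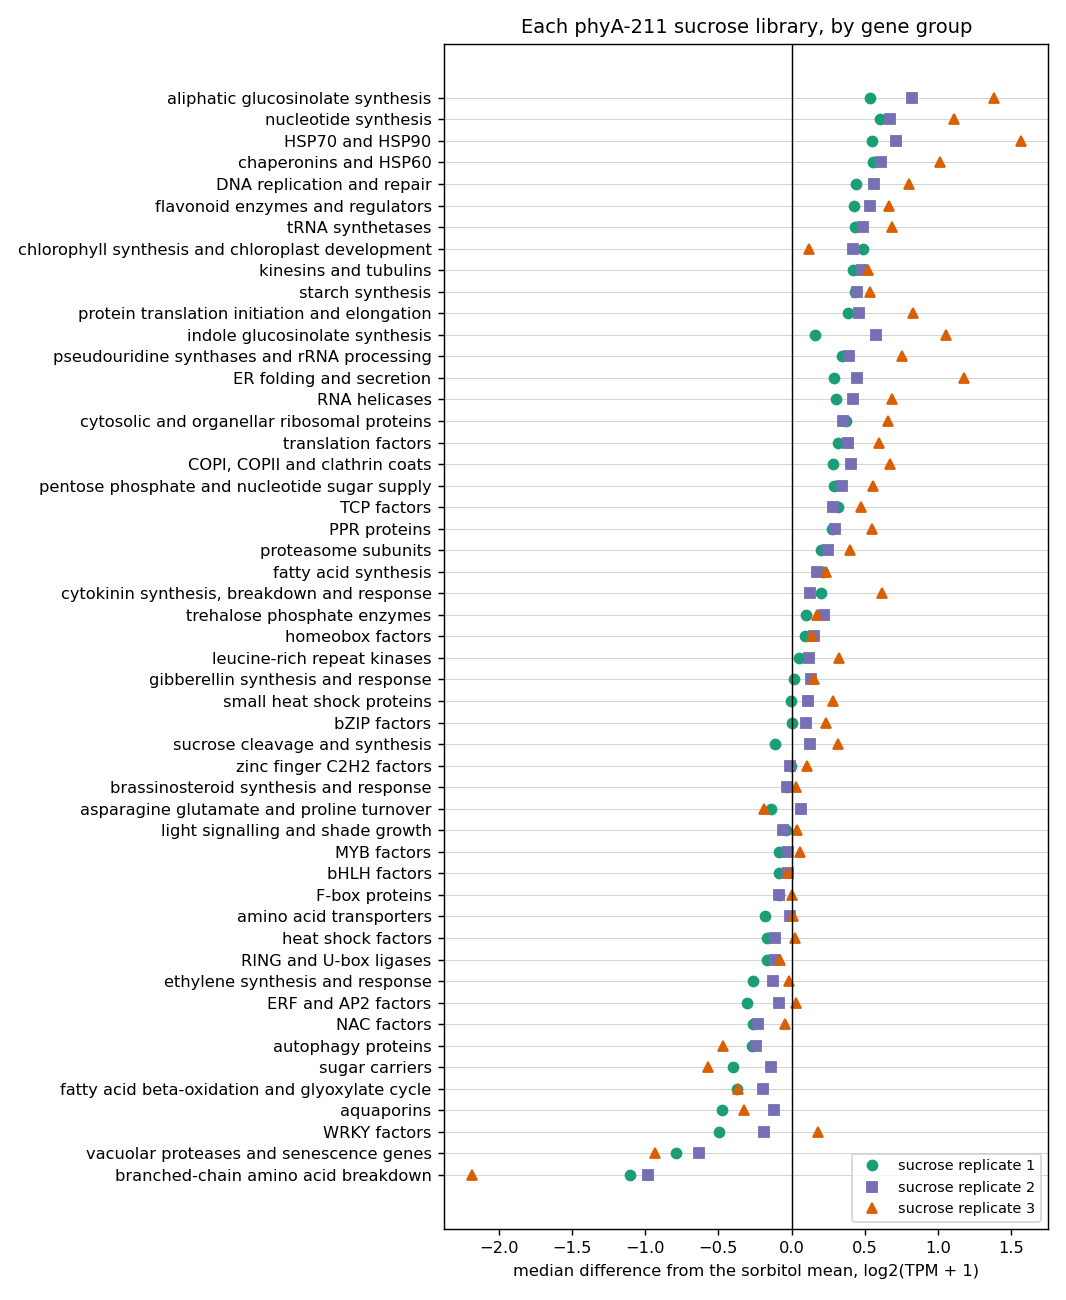
Median difference on the log2(TPM + 1) scale from the mean of the 3 sorbitol libraries for each gene group (rows) in each sucrose library of phyA-211 (symbols). Replicate 3 (triangles) lay farther from 0 than the other libraries for branched-chain amino acid breakdown and for the HSP70 and HSP90 families, and nearer to 0 for chlorophyll synthesis.

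Replicate 3 of sucrose also stood apart in single genes, of which ADH1, HB1 and AOX1A were chosen after their values were seen. They were not tested as a group. Median log2 differences of that library from the sorbitol mean were 0.02 for 11 heat shock factors and 0.28 for 29 small heat shock proteins. Over all genes tested that median was 0.19. ADH1, alcohol dehydrogenase, stood at 11.8, 21.8 and 25.9 TPM with sorbitol and 15.9, 46.6 and 389 TPM with sucrose and did not pass (log2 change 1.77, adjusted p = 0.16). HB1, a haemoglobin induced by low oxygen, stood at 27.5, 20.4 and 49.6 TPM with sorbitol and 53.8, 106 and 499.7 TPM with sucrose (log2 change 2.19, adjusted p = 0.027). AOX1A, the alternative oxidase of mitochondria, stood at 12.3, 17.9 and 13.3 TPM with sorbitol and 27.2, 35.8 and 117 TPM with sucrose (log2 change 1.69, adjusted p = 0.0108). AT4G33070, a pyruvate decarboxylase among the 15 largest rises, stood at 0.53, 2.1 and 2.5 TPM with sorbitol and 3.41, 11.1 and 76.8 TPM with sucrose (log2 change 2.66, adjusted p = 0.0357). HSFA2, a heat stress transcription factor, stood at 0.93, 1.22 and 1.03 TPM with sorbitol and 2.19, 2.85 and 14.2 TPM with sucrose (log2 change 1.47, adjusted p = 0.0354). Hsp70-2, a cytosolic HSP70, stood at 7.11, 14.8 and 7.92 TPM with sorbitol and 27.9, 27.03 and 150.5 TPM with sucrose (log2 change 2.25, adjusted p = 0.0111). In each of these genes the third sucrose library was the highest by a wide margin. A wide gap of that library was a rule for naming genes, so the margin follows in part from the choice and is no separate result. Conversely, AT3G15450, an aluminium-induced family protein, stood at 4554, 3210.4 and 4340.3 TPM with sorbitol and 1382, 1393 and 71.9 TPM with sucrose (log2 change -2.94, adjusted p = 0.0272). J8, a chloroplast J-domain protein, stood at 1716, 1046 and 1481 TPM with sorbitol and 473, 455 and 43.6 TPM with sucrose (log2 change -2.7, adjusted p = 0.0184). The third sucrose library was lowest by a wide margin for both, with the same limit. Without sucrose replicate 3, 22 of the 132 genes named here as risen or fallen no longer passed, at adjusted p between 0.0519 and 0.157. Those given above were HB1, HSFA2 and AT4G33070, and those from sugar and starch metabolism were HXK1, CINV1, CINV2, TPS5, SUT2, GBF6, ADG1 and QQS. The others were NIA1, MYB28, TIP2;3, MIR157a, FHY1, ARR4, LOG5, EIN3, ACS8, IQD22 and AT5G12050.

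Of the 29 microRNA genes tested 6 fell (20.7%) and 1 rose (3.45%), beside 10.5% and 16.9% of all genes. Without sucrose replicate 3 there were 3 falls (10.3%, beside 7.62% of all genes) and 1 rise. Nearly all their TPM lay at 1 of the genes that fell, with 22584 of 22743 TPM in sorbitol replicate 1 and 7337 of 7478 TPM in sucrose replicate 1. The precursor of MIR156c, whose microRNA keeps plants in the juvenile phase and is known to be lowered by sugar, stood at 9.18, 5.48 and 7.78 TPM with sorbitol and 3.29, 3.68 and 2.23 TPM with sucrose (log2 change -1.05, adjusted p = 0.0111). MIR157a, of the same family, stood at 8.37, 6.51 and 7.26 TPM with sorbitol and 3.29, 5.35 and 3.16 TPM with sucrose (log2 change -0.79, adjusted p = 0.0178). MIR833a was listed at 0 in every phyA-211 library on sorbitol, while sucrose gave 15.2, 15.9 and 23.6 TPM, and it was listed at 0 in all Col-0 libraries. It is the 1 microRNA gene that rose, but it passed the filter only through the 3 phyA-211 sucrose libraries and so had to differ, and its p is not given. In a RefSeq table of the TAIR10.1 assembly its locus lies inside AT1G78476, a gene looked up after these values were seen, which stood at 0.19, 1.25 and 0.84 TPM with sorbitol and 0.47, 0.18 and 0.69 TPM with sucrose (log2 change -0.25, adjusted p = 0.512). Reads of overlapping genes cannot be told apart without strand, which the sources used here do not state.

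The sucrose response of phyA-211 was set beside that of Col-0. The 2 contrasts compare separate libraries, but both take the spread of each gene from all 12, so their calls are not independent. In Col-0 2412 genes rose (12.1%) and 1976 fell (9.95%). Of the rises, 1908 were shared, which is 56.8% of those in phyA-211 and 79.1% of those in Col-0, and of the falls 1328, which is 63.4% and 67.2%, so 3236 genes were called the same way in both (16.3%). The genotype by sugar interaction, which tests whether the changes differ, passed for 2 genes (0.0101%), both with a change above that in Col-0, and for 0 in the other direction (0.0%). At an unadjusted p below 0.05 there were 792 genes (3.99%), 421 above 0 and 371 below, and without phyA-211 sucrose replicate 3 there were 1403 (7.06%). With library weights estimated from the data, by a method chosen after they were seen, the interaction passed for 980 genes above 0 and 396 below. TEM1, an AP2/B3 repressor of flowering, stood at 216, 199.6 and 208 TPM with sorbitol and 159, 144 and 129.7 TPM with sucrose in phyA-211, a small fall without overlap (log2 change -0.53, adjusted p = 0.0154). In Col-0 it stood at 171 ± 12.4 TPM with sorbitol and 41.4 ± 7.87 TPM with sucrose (SD, n = 3; log2 change -2.04, adjusted p = 9.52e-05), and the interaction was 1.51 (adjusted p = 0.0473, not passed after median-ratio or quantile scaling, with the replicate block, with no filter on low values or without any 1 of 10 of the 12 libraries). MIR833a was the other gene, whose call follows from the filter, since it passed that only through the phyA-211 sucrose libraries.

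Other genes with the smallest interaction p did not pass. PIL2, a phytochrome interacting factor-like bHLH protein, stood at 44.5, 48.9 and 54.7 TPM with sorbitol and 55.6, 51.8 and 52.5 TPM with sucrose in phyA-211 and fell in Col-0, at 48.6 ± 4.39 TPM with sorbitol and 23.4 ± 5.68 TPM with sucrose (interaction adjusted p = 0.321). BT4, a BTB and TAZ domain protein, fell in both genotypes, by log2 changes of -0.53 in phyA-211 and -1.38 in Col-0 (interaction adjusted p = 0.548). Opposite calls in the genotypes were made for 4 genes, WRKY70, IQD22, AT5G05635 and AT5G12050, the last pair chosen after their values were seen. WRKY70, a factor of salicylate defence, stood at 6.4, 7.41 and 9.2 TPM with sorbitol and 15.6, 12.4 and 9.86 TPM with sucrose in phyA-211 (log2 change 0.64, adjusted p = 0.0354) and in Col-0 at 8.27 ± 1.55 TPM with sorbitol and 3.7 ± 0.719 TPM with sucrose (log2 change -0.98, adjusted p = 0.00614), with an interaction adjusted p of 0.279. IQD22, a calmodulin-binding protein, rose in phyA-211 (log2 change 0.51, adjusted p = 0.0258) and fell in Col-0 (log2 change -0.65, adjusted p = 0.00979, interaction adjusted p = 0.289).

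Medians and counts of gene groups are set side by side for the genotypes, where 12.1% of all genes rose in Col-0 and 16.9% in phyA-211 (9.64% without sucrose replicate 3). Branched-chain amino acid breakdown had a median of -1.61 in Col-0 and -1.39 in phyA-211, senescence genes -0.78 and -0.80, and nucleotide synthesis 0.77 and 0.79. Kinesins and tubulins had 9 rises in Col-0 and 26 in phyA-211 (16 without sucrose replicate 3), and the 34 COPI, COPII and clathrin coat genes 1 and 12 (5 without it). Aliphatic glucosinolate genes had 20 rises in Col-0 and 10 in phyA-211, or 4 without that library (medians 1.27 and 0.93), and indole glucosinolate genes 8 and 1 (1.06 and 0.58). Ethylene genes had 13 falls in Col-0 and 4 in phyA-211. No gene of the glucosinolate, kinesin or coat groups passed the interaction test, and TEM1 was the only ethylene list member that did.

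**Figure D5:**
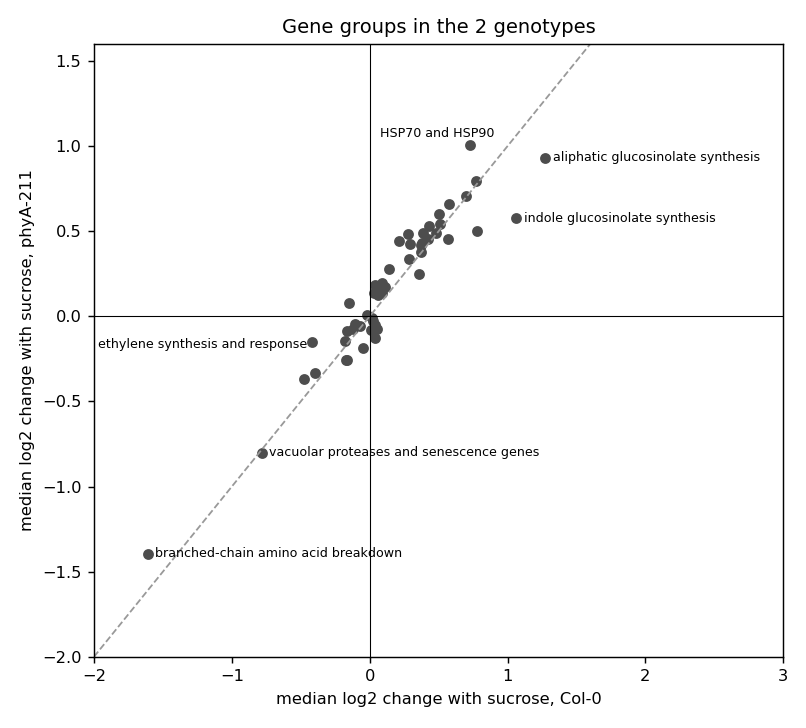
Median log2 change with sucrose in Col-0 (x axis) and phyA-211 (y axis) of each gene group (points), with the line of equal values dashed. Branched-chain amino acid breakdown lay lowest, at -1.61 and -1.39, and indole glucosinolate synthesis lay below the line, at 1.06 and 0.58.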

How the data were processed

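Leaves of 12 Arabidopsis samples, 3 for each pair of genotype (Col-0, phyA-211) and sugar (sorbitol, sucrose), were grouped by their labels. The authors deposited TPM values in 1 table with gene descriptions. The submitters' processing notes name fastp, cutadapt, HISAT2, DESeq2 and TAIR10 without roles. Which program made the TPM values, with which annotation and strand setting, is not given in the sources used here. Library depth is unknown.

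Genes with at least 1 TPM in at least 3 of 12 libraries (19862) were tested on log2(TPM + 1), a pseudocount of 1, with limma 3.58.1 in R 4.3.3: 4 group means, no replicate block, empirical Bayes with trend (8 residual and 3.68 prior degrees of freedom), Benjamini-Hochberg adjustment over all genes and a threshold of 0.05. The contrasts were sucrose against sorbitol in phyA-211, the same in Col-0, and their difference. The script was tested on simulated data. PHYA was compared by exact permutation tests. SDs are over 3 libraries.

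Lists (by symbol) and families (by words of the deposited descriptions) were described by counts and medians. The members, lists and families were chosen with earlier results of these data known. Genes named were up to 15 rises and 15 falls of largest change with a group mean of at least 5 TPM and no overlap, per list or family every member where at most 10 were tested, otherwise up to 6 of smallest adjusted p in each direction and up to 3 of highest mean TPM, up to 10 of smallest interaction p with a symbol, and up to 10 called genes with the widest gap of sucrose replicate 3. Genes without a symbol could be left out, and any other is said to be chosen after its values were seen. Alternatives were pseudocounts of 0.1 and 5, no filter, a filter of 5 TPM, median-ratio and quantile scaling, library weights, a replicate block, the phyA-211 groups alone, a minimum log2 change of 1 and leaving out each library. Promoter motifs were not analysed here.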

Additional observations from a re-analysis of the deposited data

Results flagged for a closer look

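The difference between phyA-211 and Col-0 in the change with sucrose passed limma's interaction test, which tests the difference itself, for 2 genes. For TEM1 the log2 change was higher in phyA-211 than in Col-0 by 1.51, with log2 changes of -0.53 in phyA-211 and -2.04 in Col-0. Its adjusted p lay close to the threshold. The call was lost after median-ratio or quantile scaling, with the replicate block, with no filter and on leaving out most single libraries. For MIR833a the difference was 4.24, and its transcript was listed above 0 in the 3 phyA-211 sucrose libraries and at 0 in the other 9. MIR833a passed the filter on low values only through those 3 libraries, so it had to differ and its call supports no difference between the genotypes.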

How the results depend on the processing

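As reported, 3361 genes rose and 2093 fell with sucrose in phyA-211. Fitting only the 6 phyA-211 libraries gave 1621 rises and 1088 falls. There fewer samples set the spread, and the Col-0 libraries no longer entered it. The lowest correlation between libraries of a group was 0.948 for phyA-211 sucrose and 0.960 for phyA-211 sorbitol. It was 0.970 for Col-0 sorbitol and 0.969 for Col-0 sucrose. The parts of fewer samples and of unequal spread were not tested. Asking for a log2 change of at least 1 gave 607 and 718 by construction. Library quality weights, computed gene by gene after the default method did not converge (a choice made after seeing the data), gave 7345 and 4057. Leaving out 1 library at a time gave 1336 (without phyA-211 sorbitol replicate 3) to 4146 rises (without sorbitol replicate 2) and 980 (without sorbitol replicate 3) to 2096 falls. The interaction calls, 2 upwards and 0 downwards, became 980 and 396 with the weights, and the upward calls became 1 with no filter, median-ratio scaling, quantile normalization or the replicate block. They ranged from 1 to 2 with a library left out, while the downward calls stayed at 0. The 2412 rises and 1976 falls in Col-0, whose alternatives were added after seeing the data, became 4777 and 4152 with the weights, and ranged from 1142 (without Col-0 sorbitol replicate 3) to 3148 rises (without phyA-211 sucrose replicate 3) and from 1120 (without Col-0 sucrose replicate 2) to 2352 falls. They were 1384 and 1347 rises without Col-0 sucrose replicates 1 and 2, and 1221 falls without Col-0 sorbitol replicate 3. The sucrose change of PHYA in phyA-211, 0.22 as reported, was 0.34 with the weights and then passed the threshold. Beyond what is stated here, the cause was not tested.

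With the replicate number as a block, 2971 genes rose and 2005 fell in phyA-211, of which 2864 and 1892 were also called without it. No pairing by number was seen in the phyA-211 groups. Deviations of same-numbered libraries correlated at 0.29, -0.09 and -0.03, and 1 of the 3 sorbitol libraries correlated best with its own number. With 3 libraries in a group, and sucrose replicate 3 apart from the others, this check cannot exclude pairing. The Col-0 groups were not checked.

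Of 132 genes named as called in phyA-211, 85 stayed past the threshold in every alternative run, 47 lost the call in at least 1, and none turned its direction. Most losses came with only the phyA-211 groups fitted (42), without sorbitol replicate 3 (36), without sorbitol replicate 1 (29) and without sucrose replicate 3 (22). Beside the 22 named in the report, the genes lost without sorbitol replicate 3 or 1 were MCCA, THA1, TEM1, TPS8, TPS11, J8, AT3G15450, PIP1B, BCS1, SEN1, PCK1, LOG7, SWEET12, BIP2, bZIP1, UGT74E2, BR6OX2 and WRKY70. With only the phyA-211 groups fitted they also included ASN1, BCAT-2, STP1, MYBL2, AOX1A, ACX4 and Hsp70-2. The interaction of TEM1 ranged from 1.42 to 1.66. TPM holds no depth, so counting error could not be given.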
